A study of Mus musculus with 13 samples.

Results

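The nuclear genes for subunits of respiratory complex I were followed in interscapular brown adipose tissue (iBAT) of mice on a high-fat diet (HFD). A gene was taken as a member when it is protein coding and its mouse symbol is Ndufa, Ndufb, Ndufc, Ndufs or Ndufv followed directly by a digit, with Ndufab1 added and the Ndufaf assembly factors left out. This gave 38 of the 42416 gene identifiers counted, of which 21955 are protein coding. The comparison set 8 mice with floxed Axl and the inducible Cre (iFAXLKO, Axl-floxed Cre+) against 5 with floxed Axl and no Cre (WT, Axl-floxed Cre-). Tamoxifen was given to both groups at intervals of 3 weeks, housing was at room temperature, and 1 polyadenylated RNA library was sequenced per mouse. The Cre line of the study is Adipoq-CreERT2, a transgene carried on a bacterial artificial chromosome around Adipoq, so the design aims at adipocytes and leaves Axl in the other cells of the depot. Age is not given in the labels, and the study describes the mice as female. The comparison asks how loss of Axl from adipocytes changes brown fat on HFD.

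Complex I takes electrons from NADH, passes them through a flavin and a chain of iron-sulfur clusters to ubiquinone, and pumps protons across the inner mitochondrial membrane. In brown fat, UCP1 lets those protons flow back and the energy is released as heat, so these cells are rich in respiratory chain subunits. The peripheral arm consists of an N module, which oxidises NADH, and a Q module, which reduces ubiquinone, while the membrane arm has a proximal and a distal part whose core subunits are encoded in mitochondrial DNA. By these parts, the members fell into 10 genes of the N module, 6 of the Q module, 9 of the proximal arm and 10 of the distal arm. The remaining 3 were Ndufab1, the acyl carrier protein present in both arms, and Ndufa4 and Ndufa4l2, which are related by name. Ndufa4 is now regarded as a subunit of complex IV, and Ndufa4l2 is its hypoxia-inducible relative.

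Nuclear respiratory factor 1 (NRF1) and the estrogen-related receptors are known regulators of respiratory chain genes, so the 250 bases before the start site were searched for their core letters in the 33 members that have a RefSeq promoter entry (GRCm38.p6). Matches are capitalised in 3 windows below, each read 5′ to 3′ on the strand of the gene, to show what such a match looks like in a member of the N module, the distal arm and the proximal arm.
Ndufa6, NRF1 letters on the opposite strand, chr15:82354339-82354398, minus strand: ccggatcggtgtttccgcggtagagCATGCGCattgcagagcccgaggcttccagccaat
Ndufb6, NRF1 letters, chr4:40279464-40279523, minus strand: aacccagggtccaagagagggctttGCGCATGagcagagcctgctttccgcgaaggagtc
Ndufs5, estrogen-related receptor letters on the opposite strand, chr4:123718377-123718436, minus strand: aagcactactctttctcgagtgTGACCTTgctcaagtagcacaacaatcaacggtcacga

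The NRF1 letters GCGCATG, on either strand, were found in 4 of 33 members (12.1%; Ndufa6, Ndufa8, Ndufa11 and Ndufb6) and in 4.67% of the 16514 protein-coding genes with an entry. The receptor letters AAGGTCA were found in 3 of 33 members (9.09%; Ndufb2, Ndufb4 and Ndufs5) against 4.15% of those genes. The ETS letters CCGGAAG, the core bound by GABP, were in 3 members (9.09% against 10.5%), the SP1 letters GGGCGG in 14 (42.4% against 47.5%) and the YY1 letters AAGATGG in 0 (against 4.79%). In Ndufa11 the NRF1 letters overlapped on both strands. A match is a description of the sequence, and no binding was measured. Ndufa2, Ndufa4l2, Ndufb9 and Ndufs1 were among the 5 members with no entry in the promoter table.

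The libraries held 22437277 to 32595083 counts, so every member was well covered, with 8.56 counts per 1000000 counts of the library (CPM) as the lowest value of any member in any library. Group means below are given ± SD, first for the libraries labelled iFAXLKO (n = 8) and then for WT (n = 5). The gene targeted by the Cre, Axl (ENSMUSG00000002602), had 33.1 ± 6.16 against 27.8 ± 3.82 CPM and a log2 fold change of 0.25 (SE 0.13, edgeR adjusted p 0.699), so its level was not reduced under the iFAXLKO label. The counts cover the whole gene and every cell type of the depot. Loss of Axl from adipocytes could therefore not be read from these counts, and each group is named by its label only. The study examined AXL protein by western blot in the mature fraction of inguinal white fat. The brown adipocyte markers were abundant in all libraries, with Ucp1 at 5599 ± 1122 and 6368 ± 915 CPM. Summed CPM of 12 skeletal muscle genes ran from 55.8 to 5674 over the libraries. In bulk tissue, fewer cells of a type and less RNA per cell cannot be told apart.

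The 38 members summed to 12940, 21938, 14906, 14335 and 14241 CPM in WT replicates 1 to 5. In the libraries labelled iFAXLKO the sum had a lowest value of 13869, a median of 15046 and a highest of 16214 CPM. The groups overlapped: WT replicate 2 lay above all other libraries, WT replicate 1 below them, and the remaining 3 WT libraries fell inside the range of the libraries labelled iFAXLKO. The mean was 14990 ± 823 against 15672 ± 3576 CPM, and without WT replicate 2 the WT mean was 14106 ± 831 CPM (SD, n = 4). As a share of all counts, the members took 1.41 to 1.68% of each library labelled iFAXLKO and 1.26 to 1.97% of each WT library. The mean share was 1.52% in either group.

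**Figure D1:**
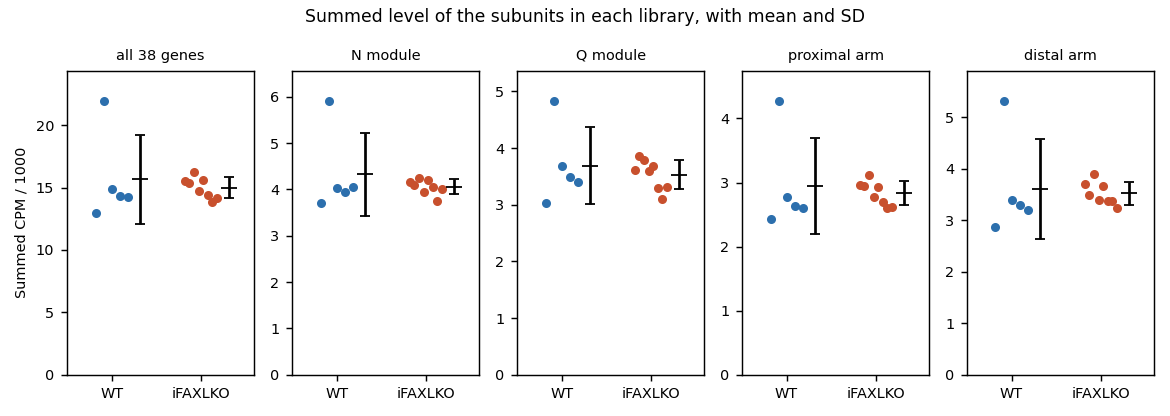
Summed CPM (divided by 1000, axis from 0) of all 38 members and of the 4 modules in each library, WT in blue and the libraries labelled iFAXLKO in red, with the group mean and SD beside the points. In every panel 1 WT library, replicate 2, stands above all others (21938 CPM for all members), and the remaining WT libraries lie close to or within the red points.

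No member passed the test between the groups. In edgeR's quasi-likelihood test, 0 of the 38 members had an adjusted p under 0.05, where 17 of 13360 genes tested did (0.127%). At an unadjusted p under 0.05 there were again 0 members, against 7.38% of all genes tested. DESeq2 and limma-voom with sample quality weights also called 0 members. The exact permutation test over all ways to choose 8 of the 13 libraries, 2-sided with 0.000777 as its smallest p, was under 0.05 for 0 members and for 7.83% of all genes tested. The CPM ranges of the groups overlapped for all 38, while 0.434% of genes had ranges that did not. The SE of a member's log2 fold change was 0.09 to 0.17, and the 95% intervals of all members lay between -0.44 and 0.38.

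Of the 38 log2 fold changes, 36 were below 0, with a median of -0.05, where all genes tested had a median of -0.01 and 53.6% below 0. That direction rested on WT replicate 2. Without it, 36 of 38 were above 0 and the median was 0.14, with all genes at 0.01. Then 6 members had an unadjusted p under 0.05 and were higher in the libraries labelled iFAXLKO, against 5.7% of genes tested, with the lowest adjusted p at 0.369. The exact permutation test was then under 0.05 for 7 members, against 11.4% of genes. Without WT replicates 1 and 2 together, a choice made after seeing the data, the median was 0.09 and 0 members had an unadjusted p under 0.05.

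**Figure D2:**
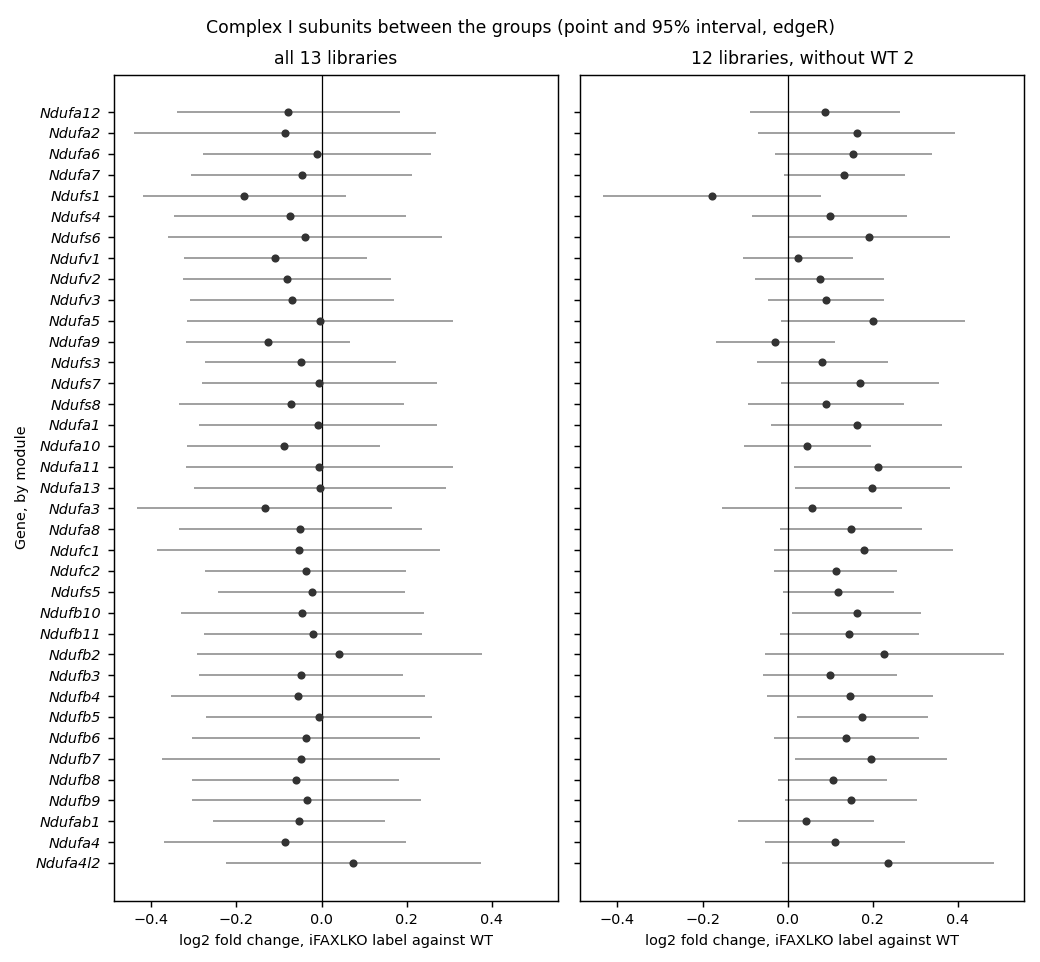
Log2 fold change (libraries labelled iFAXLKO against WT) of 37 members with the 95% interval from edgeR, with all 13 libraries on the left and without WT replicate 2 on the right, genes in module order. On the left all intervals include 0 and 35 points lie below it. On the right 35 points lie above it, and Ndufs1 is the point farthest below (-0.18).

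WT replicate 2 also stood apart by transcript length. Among protein-coding genes tested, it exceeded the mean of the other WT libraries by a median of 0.69 on the log2 CPM scale for the 315 genes with transcripts of up to 750 bases. For the 2609 genes with transcripts over 5000 bases it was lower, at -0.45. The members have short transcripts, with a median of 921 bases against 3104 for all protein-coding genes tested, and 22 of the 38 are at most 1000 bases long. The 15 members of up to 750 bases were higher in WT replicate 2 by a median of 0.75, and the 7 members between 751 and 1000 bases by 0.73, where all genes of that length had 0.62. By class medians, members over 1000 bases exceeded genes of their length by more. The median was 0.69 beside 0.48 for the 7 members of 1001 to 1500 bases and 0.66 beside 0.30 for the 5 of 1501 to 2000 bases. It was 0.30 beside 0.13 for the 2 of 2001 to 3000 bases, Ndufa10 (0.58) and Ndufs1 (0.03). Ndufs1 therefore lay below genes of its length. The 2 members of 3001 to 5000 bases, Ndufab1 and Ndufb2, were at 0.60, where all genes of that length were at -0.12. These lengths are of the longest principal transcript. The shortest principal transcript has 1416 bases in Ndufab1 and 455 in Ndufb2, where genes of up to 750 bases were at 0.69. Across the 13 libraries, the members' mean log2 deviation followed that of the 692 other short-transcript genes. It was 0.57 beside 0.52 in WT replicate 2, 0.15 beside 0.11 in the library labelled iFAXLKO 3, and -0.27 beside -0.21 in WT replicate 1. When each library's trend on transcript length was taken off before the test, a step added after seeing the data, 19 members were above and 19 below 0, with a median of -0.00042 and 0 members at an unadjusted p under 0.05.

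**Figure D3:**
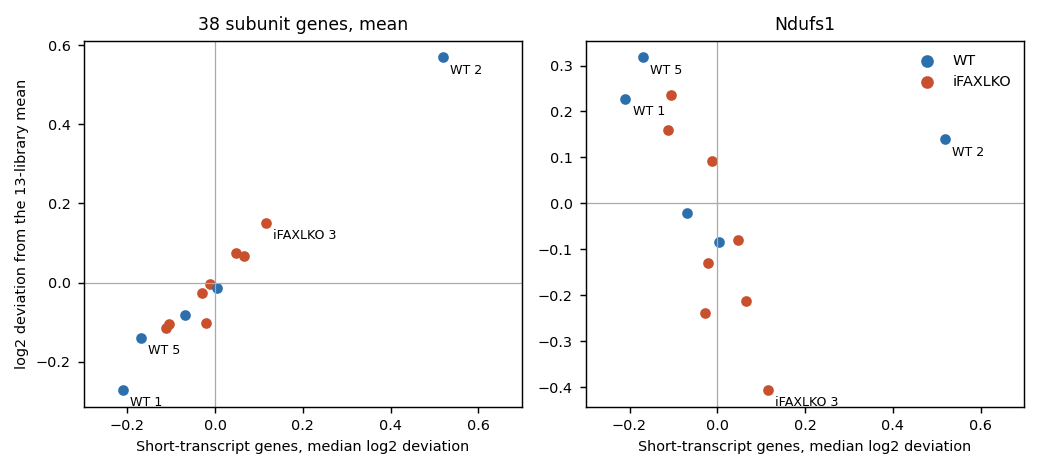
Each point is a library, WT in blue and labelled iFAXLKO in red. The x axis is the median log2 deviation from the 13-library mean over 692 protein-coding genes with transcripts of up to 1000 bases that are not members, and the y axis is that deviation for the mean of the 38 members (left) or for Ndufs1 (right). The members lie along a line with the short-transcript genes, from -0.27 in WT 1 to 0.57 in WT 2, while Ndufs1 is lowest in iFAXLKO 3 (-0.41) and highest in WT 5 (0.32).

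Within the lower range of the library numbers in the labels, which held 4 libraries labelled iFAXLKO and 2 WT libraries including replicate 2, the median difference of mean log2 CPM was -0.11, with 35 members below 0. In the upper range, with 4 and 3 libraries, it was 0.04, with 26 members above 0. The sign differed between the ranges, and in the lower range it turned to 0.34 without WT replicate 2, which leaves 1 WT library there. On the same measure, all 13 libraries together had a median of -0.015 with 26 members below 0, against 36 by the edgeR log2 fold changes.

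The N module holds the NADH end of the enzyme. Ndufv1, which binds the flavin and NADH, had 1145, 1750, 1167, 1180 and 1226 CPM in WT replicates 1 to 5, and a lowest, median and highest value of 1060, 1212 and 1259 CPM in the libraries labelled iFAXLKO. All 8 of the latter lay below the WT mean of 1293 ± 257 CPM, but 6 of 8 lay above the mean of 1179 ± 34.2 CPM (SD, n = 4) without WT replicate 2. Its log2 fold change was -0.11 (SE 0.10, edgeR adjusted p 0.879), and 0.02 without that library. Ndufv2, its iron-sulfur partner, had 516 ± 30.5 against 546 ± 131 CPM, for a log2 fold change of -0.08 (SE 0.12). The N module sum was 4056 ± 158 and 4327 ± 894 CPM.

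Ndufs1 (ENSMUSG00000025968, GRCm38 chr1:63143596-63176833, minus strand), the largest subunit of the N module and carrier of several iron-sulfur clusters, was the exception among the members. It had 699, 658, 564, 588 and 744 CPM in WT replicates 1 to 5, so that WT replicate 5 and not replicate 2 was highest. In the libraries labelled iFAXLKO, replicates 1 to 8, it had 516, 637, 451, 506, 565, 703, 546 and 667 CPM. The groups overlapped, and the WT mean was exceeded in 2 of the 8 libraries labelled iFAXLKO. The group means were 574 ± 87.2 against 651 ± 75.2 CPM, for a log2 fold change of -0.18 (SE 0.11, 95% interval -0.42 to 0.06) with p = 0.753 after adjustment in edgeR and p = 0.131 in the exact permutation test. This was the lowest p of any member. The value stayed between -0.23 and -0.13 when any 1 library was left out, was -0.18 without WT replicate 2 and -0.17 with the length trend removed. It was farthest from 0, at -0.28 (SE 0.08, edgeR unadjusted p 0.00933, adjusted p 0.303), with the replicate number as a block. In that fit the libraries labelled iFAXLKO 6, 7 and 8 have no WT library of their number and add nothing to the contrast. Replicates 6 and 8 (703 and 667 CPM) held the highest values under that label. The labels do not say whether equal numbers mark pairs. Its transcript of 2661 bases is among the 4 members over 2000 bases.

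The Q module carries electrons to ubiquinone. Its sum was 3533 ± 264 against 3686 ± 681 CPM. The log2 fold change was -0.05 (SE 0.11) for Ndufs3, -0.01 (SE 0.13) for Ndufs7 and -0.07 (SE 0.12) for Ndufs8, core subunits that carry or frame the last iron-sulfur clusters. Ndufa9, an accessory subunit at the junction with the membrane, had 538, 785, 614, 582 and 593 CPM in the WT libraries and 513, 577 and 629 CPM as lowest, median and highest in the libraries labelled iFAXLKO. At a log2 fold change of -0.13 (SE 0.09, edgeR adjusted p 0.815), it was the only member beside Ndufs1 that was still below 0 without WT replicate 2 (-0.03).

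The accessory subunits of the membrane arm had log2 fold changes close to 0. Farthest from it, in the proximal arm, was Ndufa3 at -0.13 (SE 0.14, edgeR adjusted p 0.898), with 205, 405, 275, 246 and 223 CPM in WT replicates 1 to 5 and 213 to 296 CPM in the libraries labelled iFAXLKO. Ndufa1, a small X-linked subunit, had 295 ± 31.5 against 297.1 ± 78.0 CPM and a log2 fold change of -0.01. In the distal arm, Ndufb2 was the only gene above 0, at 0.04 (SE 0.16), with 138 ± 24.6 against 134 ± 38.6 CPM. The proximal arm summed to 2832 ± 186 and 2943 ± 752 CPM, and the distal arm to 3519 ± 222 and 3608 ± 973 CPM.

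Outside the modules, Ndufab1 had 214 ± 18.7 against 222 ± 33.1 CPM, for a log2 fold change of -0.05 (SE 0.09). Ndufa4 had 680.5, 1322, 840, 788 and 748 CPM in the WT libraries and 729 to 927 CPM in the libraries labelled iFAXLKO, a log2 fold change of -0.09 (SE 0.13). Ndufa4l2 had 11.3 ± 1.62 against 10.7 ± 2.73 CPM, for a log2 fold change of 0.07 (SE 0.14). It was low in every library, 8.56 to 15.3 CPM. Ndufb1-ps (ENSMUSG00000113902), which GENCODE classes as noncoding and which therefore falls outside the rule, had 131 ± 12.1 against 139 ± 41.4 CPM and, like the members, its highest value in WT replicate 2 (212 CPM).

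The members varied together from library to library. On log2 CPM with the group means taken off, Pearson's r of a member with the mean of the other members had a median of 0.97 over the 13 libraries and 0.905 over the 12 libraries without WT replicate 2. Ndufs1 went the other way, with r of -0.32 and, without WT replicate 2, -0.75. Ndufa10 (-0.07), Ndufv1 (0.20) and Ndufab1 (0.42) were the next lowest in the 12 libraries. The libraries share 1 scaling factor for all genes and the length trend given above, whose part in these correlations was not tested. The modules kept nearly the same proportions. Of the summed CPM of the members, the N module took 26.1 to 28.7% in every library, the Q module 22.0 to 25.1%, the proximal arm 18.3 to 19.5% and the distal arm 22.1 to 24.4%.

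**Figure D4:**
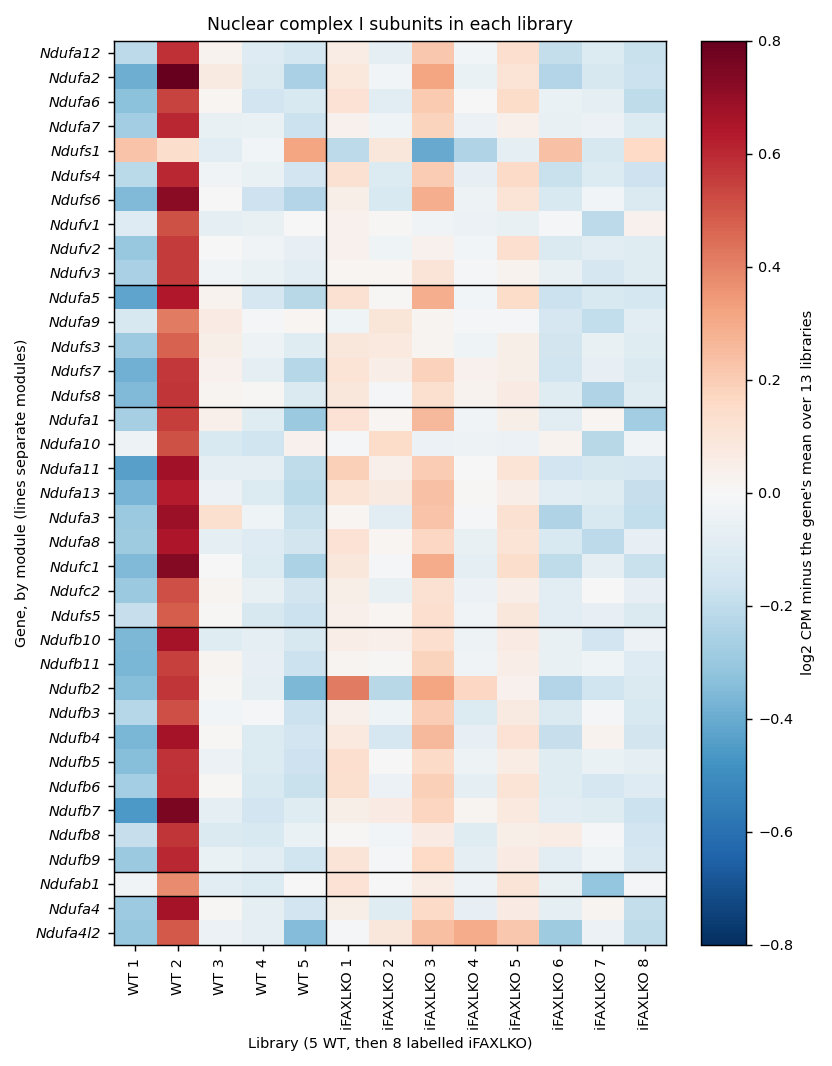
Log2 CPM of 37 members minus the gene's mean over the 13 libraries, red above and blue below, with libraries in columns (5 WT, then 8 labelled iFAXLKO) and genes in rows by module (N, Q, proximal arm, distal arm, Ndufab1, related). WT 2 is the highest library for 36 of these 37 and WT 1 the lowest for 29, while Ndufs1 is lowest in iFAXLKO 3.

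WT replicate 2 was the highest library for 37 of the 38 members and WT replicate 1 the lowest for 29. The excess of WT replicate 2 over the mean of the other WT libraries ran from 1.01-fold (Ndufs1) to 1.94-fold (Ndufa2, an N module accessory subunit), with a median of 1.63-fold. CPM was scaled by TMM factors, and that of WT replicate 2 was the lowest (0.897). For the sum of the members the excess was 1.56-fold in CPM and 1.40-fold as a share of raw counts. Over all 13 libraries the coefficient of variation ran from 11.2% for Ndufab1 to 24.3% for Ndufa2 among the 37 members plotted.

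Levels can be set against each other only per length. CPM was divided by the kilobases of the longest principal transcript. High WT means were then those of Ndufa4 (1436 ± 420 CPM per kilobase), Ndufb8 (1201 ± 295) and Ndufb9 (969 ± 265). These SDs give the spread between libraries, in which the genes largely rise and fall together. They do not measure the difference between genes, which was not tested. Over all annotated exons, Ndufa1 (709 ± 186) was highest and lay above Ndufb9 (662 ± 181), so the order depends on the length used. Lowest was Ndufa4l2 (11.5 ± 2.92 per kilobase of transcript), below Ndufb2 (30.7 ± 8.84) and Ndufb4 (34.9 ± 10.6), and Ndufa4l2 stayed lowest over all annotated exons. Ndufb2 has principal transcripts of 455 and 4371 bases, and its level was 295 ± 84.9 per kilobase of the shorter. The count of Ndufb4 is uncertain, since RefSeq lists the related protein-coding genes Ndufb4b and Ndufb4c with which it could share reads.

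**Figure D5:**
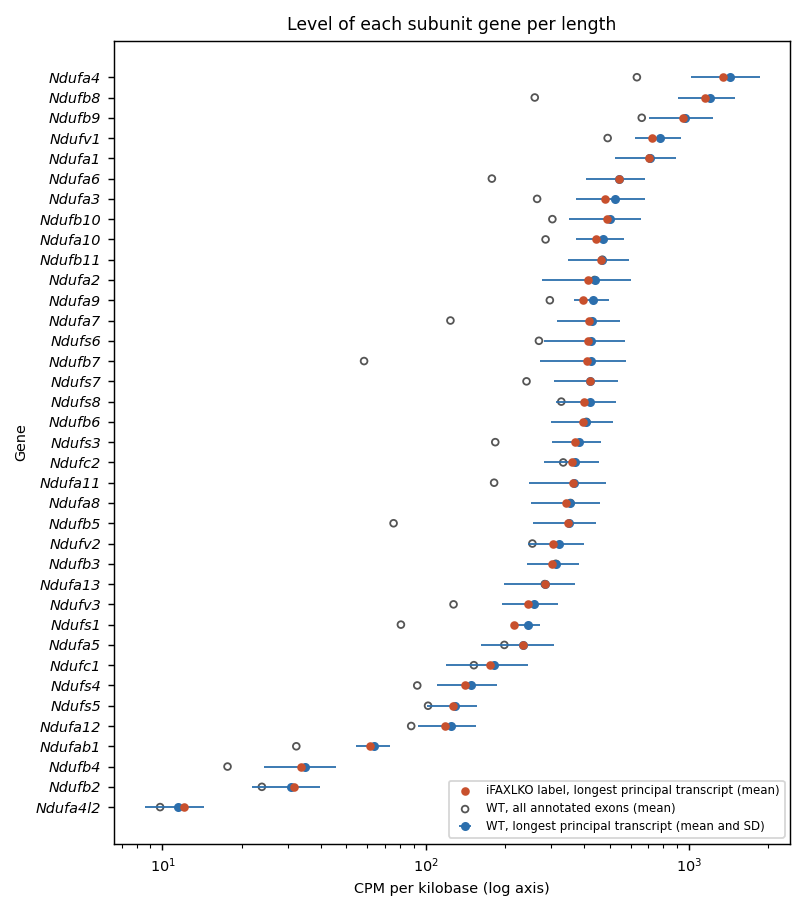
Level of 37 members in CPM per kilobase (log axis), ordered by the WT mean over the longest principal transcript (blue, with SD, n = 5), with the mean of the libraries labelled iFAXLKO (red, n = 8) and the WT mean over all annotated exons (open circles). Ndufa4 is at the top (1436) and Ndufa4l2 at the bottom (11.5), and red and blue points of a gene nearly coincide.

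Other genes of the pathway were read from the same fit. Of 17 assembly factors, 7 mitochondrially encoded complex I genes, 44 nuclear subunits of complexes II to V and 8 regulators, 0 had an adjusted p under 0.05. Among assembly factors the lowest p-values were those of Ndufaf1, at 39.1 ± 2.96 against 46.0 ± 7.98 CPM with a log2 fold change of -0.23 (SE 0.09, edgeR adjusted p 0.61), and Nubpl (-0.19, SE 0.09), which delivers iron-sulfur clusters. The assembly factors had a median of -0.08 with 15 of 17 below 0, and without WT replicate 2 a median of -2.32e-05 with 9 of 17 below 0. The subunits of complexes II to V had a median of -0.06 with 38 of 44 below 0, and without that library 0.12 with 7 below 0. Their lowest p-values by complex were those of Sdha (-0.15) and Sdhb (-0.10), Uqcrc2 (-0.20) and Uqcrc1 (-0.14), Cox7a1 (-0.15) and Cox8b (-0.16), and Atp5b (-0.21) and Atp5f1 (-0.14). The regulators had a median of -0.02, with Nrf1 at 0.13 (SE 0.09) and Gabpa at -0.13 (SE 0.10) closest to the limit.

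The 7 complex I genes of mitochondrial DNA had a median of -0.25 with all 7 below 0, and without WT replicate 2 a median of -0.22 with 5 of 7 below 0, since mt-Nd4 (0.04) and mt-Nd6 (0.07) were then above it. mt-Nd2 had 20372 ± 2724 against 24200 ± 1940 CPM, for a log2 fold change of -0.25 (SE 0.10, edgeR adjusted p 0.619), and mt-Nd3 -0.32 (SE 0.13, edgeR adjusted p 0.621). The ratio of the members' summed CPM to that of these 7 genes was 0.173 to 0.223 in the libraries labelled iFAXLKO and 0.153, 0.242, 0.189, 0.182 and 0.165 in WT replicates 1 to 5, so the groups overlapped. The ratio to the 44 subunits of complexes II to V was steadier, at 0.354 to 0.378 in the libraries labelled iFAXLKO. In WT replicates 1 to 5 it was 0.340, 0.363, 0.348, 0.353 and 0.343, so the groups overlapped through WT replicate 2 alone. A difference between the groups in this ratio was not tested.

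Markers of the other cells of the depot were summed in each library. The sum of 7 fibroblast genes was 756 ± 217 in the libraries labelled iFAXLKO and 491 ± 116 CPM in WT, with WT replicate 2 at 445, and all 7 had an unadjusted p under 0.05. The 12 muscle genes summed to 3861, 3147, 1573, 1416 and 93.5 CPM in WT replicates 1 to 5, so that the WT libraries with the lowest and the highest level of the members were the 2 with most muscle RNA. The 9 brown adipocyte genes summed to 22901 CPM in WT replicate 2 and to between 14149 and 18535 CPM in all other libraries. The 5 macrophage genes summed to 59.1 ± 11.5 against 44.8 ± 6.96 CPM, and 4 of them had an unadjusted p under 0.05. So did 1 of 4 white adipocyte genes, 1 of 5 erythroid genes, 1 of 9 brown adipocyte genes (Elovl3, lower), 0 of 12 muscle genes and 0 of 5 endothelial genes. Over all genes tested, 7.38% had an unadjusted p under 0.05 in edgeR. No marker had an adjusted p under 0.05. The part of these cell types in the members' values was not tested.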

How the data were processed

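RNA sequencing counts were analysed for iBAT of 13 mice. The deposited files hold raw counts made by the authors, 1 whole number per Ensembl gene identifier. Per the submitters' processing notes, bcl2fastq 2.20, fastp 0.20.0, STAR 2.7.4a and DESeq2 were used with build GRCm38.p6, whereas the methods of the study name Trim Galore and hisat2. The methods also describe ribosomal RNA depletion where the labels give polyadenylated RNA. How reads were counted per gene, and whether by strand, is not given in the sources used here, so overlapping genes on opposite strands may share reads. GENCODE M21 gave biotypes, positions and transcript lengths for 42347 identifiers.

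Genes with over 1 CPM in at least 5 libraries were kept, and edgeR 4.0.16 (TMM factors, robust quasi-likelihood test, 2-sided, Benjamini-Hochberg adjustment over all genes tested) compared the groups. The tests were tried on simulated data first. SE is the log2 fold change divided by the square root of F. Log2 CPM used a prior count of 2. Alternatives used DESeq2 1.42.0 and limma 3.58.1, other scalings and filters, covariates and single libraries left out. Groups came from the labels, which do not say whether the mice shared litters. Any 2 libraries of a group differed beyond sampling noise (chi-square per degree of freedom at least 16.7). Intervals cover the spread between libraries.

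The members and gene lists were chosen with earlier results of these data known. The text names Axl, members past the limit, the 4 with the lowest p in each direction, the 3 highest and 3 lowest per kilobase of exon, core subunits, Ndufab1, Ndufa4 and Ndufa4l2, and the 2 lowest p of each other list. Ndufb8, Ndufa2, Ndufa10 and Ndufb1-ps were named after their values were seen. 1 member enters the counts, medians and sums but is not reported here by itself.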

Additional observations from a re-analysis of the deposited data

Results flagged for a closer look

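In 46 checks of the named members and sums, each within 1 group, 15 times the highest or lowest library lay farther from its neighbour, as a share of the group's range, than Dixon's 95% limit (0.71 for 5 libraries, 0.526 for 8). Chance flags about 1 in 20 such groups, and the checks are not independent, since the same libraries enter each. In 12 of the 15, the library was WT replicate 2, the highest of its group. Its gap as a share of the WT range was 0.782 for the summed CPM of all 38 members, 0.844 for the N module, 0.818 for the proximal arm and 0.787 for the distal arm. It was 0.866 for Ndufv1, 0.787 for Ndufab1, 0.786 for Ndufb9, 0.752 for Ndufa4, 0.716 for Ndufb4 and 0.715 for Ndufv2. For the assembly factors it was 0.788 and for the nuclear subunits of complexes II to V 0.785. The Q module was not among them.

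The library labelled iFAXLKO 7 was the lowest of its group for Ndufv1, with a gap of 0.592 of the range, for Ndufab1 (0.554) and for the summed assembly factors (0.53).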

How the results depend on the processing

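Over the alternatives, 0 of 38 members were called in every fit, and 0 of the assembly factors, mitochondrially encoded genes, subunits of complexes II to V and regulators. The number of genes called over the whole table was 67 in DESeq2, 7 with protein-coding genes alone, 9 with the length trend removed and 7 with the replicate block. Of the cell type markers, 0 were called, but 2 fibroblast genes in DESeq2. Leaving out 1 library gave 14 to 19 genes called, 0 to 1 cell type markers (1 without WT replicate 4), 0 members called, 0 to 7 members at an exact permutation p under 0.05, a median of -0.12 to 0.14, and 2 to 37 members below 0, where the 2 came without WT replicate 2. The number below 0 was 2 in limma-voom with quality weights, 13 with library sizes without mitochondrial and top 10 genes, 8 with the replicate block, 4 without WT replicates 1 and 2, and 19 with the length trend removed. The median of all genes moved to 0.04 with those library sizes.

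Of 375 values of named members over the alternatives, 67 changed sign, the others did not, and none was called. In limma-voom the log2 fold change was 0.129 for Ndufa1, 0.019 for Ndufa3, 0.070 for Ndufa4, 0.058 for Ndufab1, 0.104 for Ndufb4, 0.115 for Ndufb9, 0.056 for Ndufs3, 0.137 for Ndufs7, 0.060 for Ndufs8, 0.018 for Ndufv1 and 0.042 for Ndufv2. With library sizes without mitochondrial and top 10 genes it was 0.052 for Ndufa1, 0.002 for Ndufab1, 0.007 for Ndufb4, 0.026 for Ndufb9, 0.008 for Ndufs3 and 0.054 for Ndufs7. Ndufa1 and Ndufs7 were at 0.018 and 0.019 with upper quartile factors, 0.006 and 0.008 with protein-coding genes alone, and 0.035 and 0.021 with a muscle score as a covariate. Without WT replicates 1 and 2, Ndufa1 was at 0.125, Ndufa4 at 0.058, Ndufab1 at 0.052, Ndufb4 at 0.081, Ndufb9 at 0.102, Ndufs3 at 0.019, Ndufs7 at 0.10, Ndufs8 at 0.015, Ndufv1 at 0.010 and Ndufv2 at 0.012. With the length trend removed, Ndufa1 was at 0.032, Ndufb9 at 0.012 and Ndufs7 at 0.043. The cause was not tested.

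With 1 library left out, the ranges that crossed 0 were -0.079 to 0.162 for Ndufa1, -0.219 to 0.056 for Ndufa3, -0.165 to 0.110 for Ndufa4, -0.090 to 0.043 for Ndufab1, -0.038 to 0.227 for Ndufb2, -0.144 to 0.147 for Ndufb4, -0.108 to 0.148 for Ndufb9, -0.122 to 0.081 for Ndufs3, -0.092 to 0.169 for Ndufs7, -0.159 to 0.090 for Ndufs8, -0.150 to 0.024 for Ndufv1 and -0.160 to 0.076 for Ndufv2.

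With the replicate number as a replicate block, the members' median was 0.05, 1 member, Ndufs1 at -0.285, had an unadjusted p under 0.05, and the values that changed sign were 0.097 for Ndufa1, 0.019 for Ndufab1, 0.043 for Ndufb4, 0.051 for Ndufb9, 0.025 for Ndufs3, 0.105 for Ndufs7 and 0.037 for Ndufs8. In that fit the libraries labelled iFAXLKO 6, 7 and 8 have no WT library of their number and add nothing to the contrast. The deviations of libraries with the same number correlated at 0.392, 0.422, 0.188, 0.181 and -0.614 for numbers 1 to 5. Libraries with unlike numbers were not correlated for comparison, so whether the numbers pair the libraries was not settled. With 5 WT libraries, of which 1 stands apart, differences within the intervals above were not detectable.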
